A study of Mus musculus with 6 samples.

Results

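Hyaluronan synthase 1 (Has1), the hyaluronan-degrading protein Cemip, the inter-alpha-inhibitor heavy chain gene Itih2 and the long pentraxin gene Ptx3 were all lower in NIH-3T3 cells grown on the Nanopore #3 scaffold than in the same cells grown on standard plates. These 4 genes were taken by symbol from a deposited table of 581 genes. The table was selected on the difference between the same plate and scaffold libraries, by the authors, and the 4 symbols were chosen with their values known. The differences between the groups are therefore given as a description with no test. The 2 group means differed by at least 0.997 on the log2 scale in each gene of the table, and Has1, at 2.11-fold, lay close to that lower end. Genes that differed by less were not analysed here.

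NIH-3T3 is an immortalised mouse embryo fibroblast line, labelled wild type, and both groups were maintained in DMEM with 10% fetal bovine serum. RNA sequencing of total RNA gave 3 libraries from plates and 3 from the scaffold. The labels used here do not state the scaffold material, the time in culture or whether replicates were separate cultures, so the spread between libraries may be technical.

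Hyaluronan is a long unbranched glycosaminoglycan of the extracellular matrix. It is made at the plasma membrane by the Has enzymes from UDP-glucuronic acid and UDP-N-acetylglucosamine, and extruded into the pericellular coat of fibroblasts as it grows. Cemip, also known as KIAA1199 or HYBID, is needed for hyaluronan breakdown by skin and synovial fibroblasts in human cells. Heavy chains of the inter-alpha-inhibitor family, Itih2 among them, are transferred onto hyaluronan by the protein TSG-6 (gene Tnfaip6). Ptx3 binds these heavy chains and crosslinks the hyaluronan matrix around the mouse oocyte.

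The 4 genes lie on different chromosomes, and their spans in the table equal those of GENCODE M21, an annotation of GRCm38. Has1 (ENSMUSG00000003665) runs from 17843323 to 17855205 on the minus strand of chromosome 17, with up to 5 exons in a transcript. Cemip (ENSMUSG00000052353) runs from 83932857 to 84086502 on the minus strand of chromosome 7, with up to 29 exons. Itih2 (ENSMUSG00000037254) runs from 10094593 to 10131396 on the minus strand of chromosome 2, with up to 21 exons. Ptx3 (ENSMUSG00000027832) runs from 66219910 to 66225805 on the plus strand of chromosome 3, with up to 3 exons. Ptx3 lies within the span of Veph1 on the opposite strand, and 0% of the exon bases of Ptx3 is shared with an exon of another gene. The other 3 overlap no annotated gene.

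Because the 4 genes were all lower on the scaffold, the start regions are shown for comparison, each from 250 bases before the RefSeq transcription start to 50 bases after it, 5′ to 3′ on the gene's strand. The sequences are from RefSeq, build GRCm38.p6: chr17:17855139-17855438 (minus strand) for Has1, chr7:84086456-84086755 (minus) for Cemip, chr2:10130634-10130933 (minus) for Itih2 and chr3:66219637-66219936 (plus) for Ptx3. Capitals mark matches, on either strand, to 8 consensus motifs. The letters searched were TGACTCA for AP-1, TGACGTCA for the cyclic AMP response element (CRE), TATAAA for the TATA box and TTNNGCAA for C/EBP. They were CCAAT for the motif of that name and GGGCGG for the GC box, and the CArG box and the NF-kappaB consensus were searched as well.
Has1: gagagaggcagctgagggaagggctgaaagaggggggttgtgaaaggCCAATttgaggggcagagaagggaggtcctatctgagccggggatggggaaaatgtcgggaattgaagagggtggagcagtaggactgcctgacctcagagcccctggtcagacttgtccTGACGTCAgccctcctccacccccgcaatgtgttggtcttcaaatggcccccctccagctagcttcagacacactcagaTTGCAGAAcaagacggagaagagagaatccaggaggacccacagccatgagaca
Cemip: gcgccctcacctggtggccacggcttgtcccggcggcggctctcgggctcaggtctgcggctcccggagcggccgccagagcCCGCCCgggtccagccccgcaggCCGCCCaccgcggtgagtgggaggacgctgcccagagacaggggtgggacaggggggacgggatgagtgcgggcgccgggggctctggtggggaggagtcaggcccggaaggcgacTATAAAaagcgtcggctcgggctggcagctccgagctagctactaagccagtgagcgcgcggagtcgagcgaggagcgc
Itih2: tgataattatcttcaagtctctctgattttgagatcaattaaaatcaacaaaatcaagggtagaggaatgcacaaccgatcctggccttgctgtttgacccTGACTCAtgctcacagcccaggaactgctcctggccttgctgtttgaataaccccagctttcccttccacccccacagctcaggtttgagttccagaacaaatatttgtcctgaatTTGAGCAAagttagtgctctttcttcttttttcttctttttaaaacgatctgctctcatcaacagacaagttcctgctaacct
Ptx3: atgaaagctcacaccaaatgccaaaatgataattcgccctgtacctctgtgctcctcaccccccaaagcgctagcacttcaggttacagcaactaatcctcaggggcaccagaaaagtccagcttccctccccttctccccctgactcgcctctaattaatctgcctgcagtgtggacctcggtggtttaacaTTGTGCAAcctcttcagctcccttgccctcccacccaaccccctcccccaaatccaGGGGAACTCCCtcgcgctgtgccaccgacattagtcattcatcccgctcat

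The start regions had little in common. Cemip had a GC content of 73.7%, above that of 94.9% of the 32851 start regions of the same length, and 33 CpG dinucleotides. The medians of all start regions were 52.7% and 7 CpG. Has1 and Ptx3 had 57.0% and 54.7% with 5 and 8 CpG. Itih2 was AT-rich, with 42.3% and 2 CpG. Matches to the C/EBP letters were found in Has1, Itih2 and Ptx3, at -4, -33 and -57, counted to the first base of the match. Of all start regions, 10.8% hold these letters. Has1 alone had the CRE letters, which 1.79% of start regions hold, and Cemip alone had the TATA letters, at -29, which 13.6% hold. Itih2 alone had the AP-1 letters (5.20% of start regions), at -149. Ptx3 alone matched the NF-kappaB consensus (8.46% of start regions), in 2 overlapping matches at its start. Has1 held CCAAT (37.4%), Cemip held 2 GC boxes (35.7% of start regions hold one), and the CArG box (1.63%) was found in none of the 4 windows. The RefSeq starts of Has1, at 17855188, and Itih2, at 10130683, lie inside the gene spans of the table. On the minus strand these spans begin at 17855205 and 10131396, so the Itih2 window lies well inside. Which start these cells use was not tested. A match describes these letters only.

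**Figure D1:**
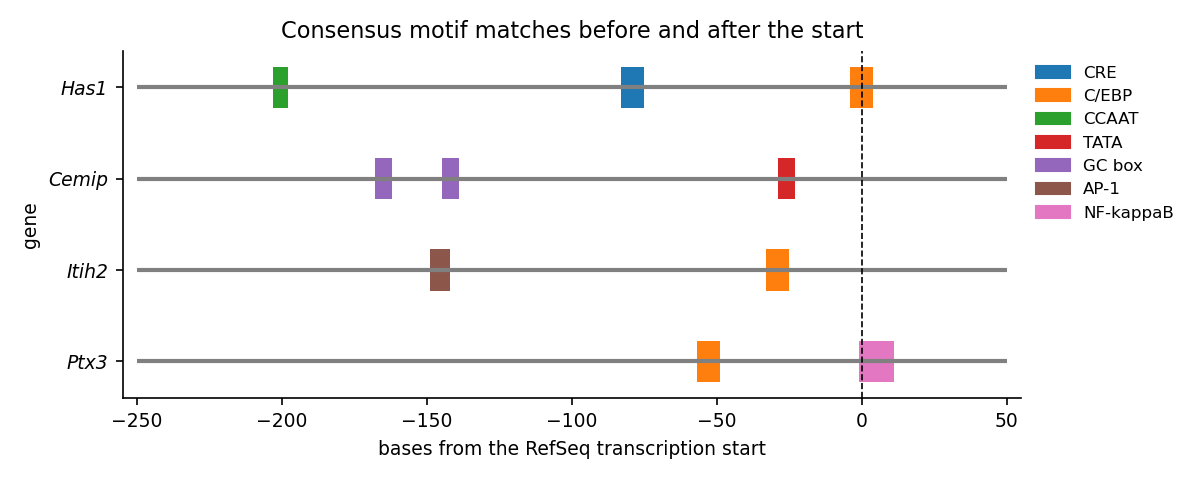
Positions of consensus motif matches in the start regions of the 4 genes. The x axis gives bases from the RefSeq transcription start, each coloured block is a match on either strand, and C/EBP matches appear in Has1, Itih2 and Ptx3 but not in Cemip.

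Each value is the number of reads of a gene after division by its library's size factor, called a normalised read count here. Over the 581 genes, the 5 libraries whose whole reads could be recovered held 264178 to 293198 reads, and size factors ran from 0.944 to 1.09. In the table, 392 genes were lower on the scaffold and 189 higher. Cell identity cannot be checked from genes selected for a difference, since a marker missing from the table may still be expressed in both groups. Of 11 fibroblast markers, 2 were in the table, Col1a1 and Col1a2. Their summed value was 56194 to 57427 on plates and 23212 to 30363 on the scaffold. Of other cell types, 1 of 5 epithelial markers was present, Krt8, at 13.3 to 17.5 on plates and 29.8 to 37.6 on the scaffold. None of the 6 macrophage, 5 endothelial or 5 hepatocyte markers was among the 581 genes. The part of cell composition in the differences was not tested.

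Synthesis was represented by Has1, a gene of low to moderate level. It had 50.6, 84.4 and 70.4 normalised read counts in plate replicates 1, 2 and 3 and 38.0, 25.4 and 33.7 in scaffold replicates 1, 2 and 3. All 3 scaffold libraries were below all plate libraries, but plate replicate 1 lay only a little above scaffold replicate 1. The mean was 68.5 ± 17.0 on plates and 32.4 ± 6.41 on the scaffold (SD, n = 3 each), 2.11-fold lower, and the difference of log2(value + 1) was -1.05 (SE 0.251, limma). These values rest on 55, 82 and 74 reads on plates and 37 and 24 reads in scaffold replicates 1 and 2. As in any bulk RNA sample, fewer cells expressing a gene and less RNA of it per cell cannot be told apart. Groups that do not overlap, with the scaffold lower, were found in all 4 hyaluronan genes and in 66.4% of the 581 genes (98.6% counting both directions), shares that the authors' selection sets.

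Has1 had the smallest difference of the 4 genes, and its groups were the only ones of the 4 to overlap after either rescaling tried. Rescaling the libraries to equal medians, which moved the median log2 difference of all 581 genes by 0.74, took Has1 to -0.30, and its groups then overlapped, at 43.0 to 64.2 on plates and 35.5 to 47.95 on the scaffold. Quantile normalisation, which moved that median by 0.63, took it to -0.35 with overlapping groups. Both rescalings used the selected genes, most of which were lower, so they cannot show which scaling is right.

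Breakdown was represented by Cemip, the most abundant of the 4 as a normalised read count. Plate replicates 1, 2 and 3 had 1628, 1814 and 1719 normalised read counts, and scaffold replicates 1, 2 and 3 had 690.0, 411 and 340. The plate libraries lay close together, and the scaffold libraries were all far below them, with replicate 1 the highest. The mean was 1720 ± 92.9 on plates and 480.2 ± 185 on the scaffold (SD, n = 3 each), 3.58-fold lower. The log2 difference was -1.90 (SE 0.216, limma on log2(value + 1)), and -1.14 with libraries rescaled to equal medians. With 1771, 1763 and 1806 reads on plates and 671 and 388 in scaffold replicates 1 and 2, counting error is small beside the spread between scaffold libraries.

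Heavy chain genes were represented, as RNA only, by Itih2, which in the body is made mainly by the liver. It had 17.5, 31.9 and 24.7 normalised read counts in plate replicates 1, 2 and 3. It was listed at 0 in scaffold replicates 1 and 3 and at 4.24 in scaffold replicate 2. The gene was thus detected in every plate library and in a single scaffold library. A count of 0 allows up to 3 reads, which is a normalised value of 3.08 in scaffold replicate 1, below every plate value. The plate mean was 24.7 ± 7.22 (SD, n = 3).

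The size of the Itih2 difference is poorly determined. The log2 difference of -3.85 (SE 0.647, limma on log2(value + 1)) was the most negative of the 581 genes on this scale, but a pseudocount of 0.1 in place of 1 made it -6.10 and one of 0.01 made it -8.32. In reads, the 3 plate libraries held 76 and scaffold replicates 1 and 2 held 4, a normalised ratio of 11.7 (95% exact interval 4.39 to 44.1, counting error only).

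Crosslinking was represented by Ptx3, which had the most uneven scaffold values of the 4 apart from Itih2. Plate replicates 1, 2 and 3 had 405, 386 and 379 normalised read counts. Scaffold replicates 1, 2 and 3 had 141, 51.9 and 21.8. Every scaffold library was well below the plates, but scaffold replicate 1 was 6.47 times scaffold replicate 3. Relative to the plate mean, the scaffold libraries kept 36.1%, 13.3% and 5.58%. The mean was 390.1 ± 13.8 on plates and 71.5 ± 61.9 on the scaffold (SD, n = 3 each), 5.45-fold lower, with a log2 difference of -2.82 (SE 0.515, limma on log2(value + 1)). The log2 difference was -2.06 with libraries rescaled to equal medians, -2.17 without scaffold replicate 3 and -2.01 in edgeR on the recovered reads of 5 libraries, which also leaves that library out.

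**Figure D2:**
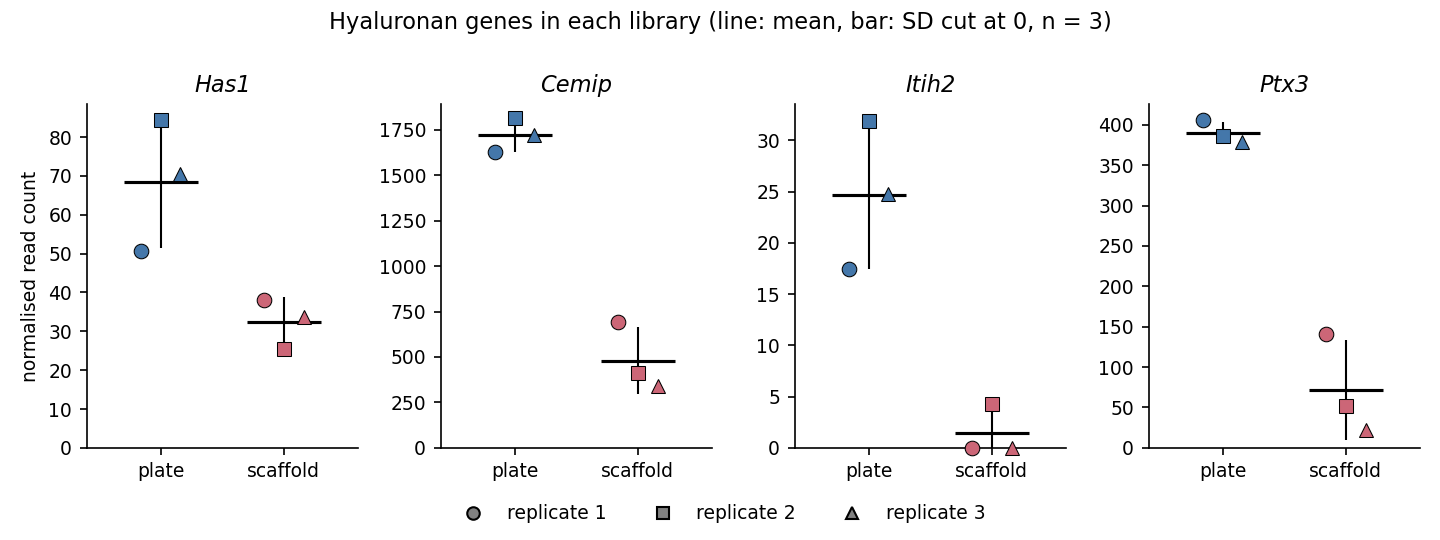
Normalised read counts of Has1, Cemip, Itih2 and Ptx3 in each library, on linear axes from 0, with plate libraries in blue and scaffold libraries in red. Horizontal lines are means and vertical bars SD (n = 3, cut at 0). In each gene the 3 scaffold libraries lie below the 3 plate libraries, Itih2 is at 0 in scaffold replicates 1 and 3, and Ptx3 spreads from 21.8 to 141 on the scaffold.

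The order of the scaffold libraries differed among the 4 genes, though few reads set it in Has1 and Itih2. In Cemip and Ptx3, scaffold replicate 1 was the highest and replicate 3 the lowest. In Has1, replicate 1 was the highest and replicate 2 the lowest, and in Itih2 only replicate 2 had reads. Scaffold replicates 1 and 2 held 37 and 24 reads of Has1, and 0 and 4 of Itih2. The part of counting error in these orders was not tested. Scaffold replicate 1 had the highest scaffold value in 218 of the 392 lower genes (55.6%), so its position in Cemip, Ptx3 and Has1 was common in the table; its part in the differences is shown by leaving it out, which gave log2 differences of -2.20 for Cemip, -3.49 for Ptx3, -1.17 for Has1 and -3.45 for Itih2.

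The spread of Ptx3 on the scaffold stood at the top of its class. Among the 158 lower genes with a mean of at least 50 over the 6 libraries, the SD of log2(value + 1) between scaffold libraries had a median of 0.27, and Ptx3, at 1.32, ranked 1. Cemip, at 0.53, ranked 23, and Has1, at 0.29, ranked 75. Between plate libraries the order was the other way. Has1, at 0.37, ranked 3 of the 158, Cemip, at 0.08, ranked 97 and Ptx3, at 0.05, ranked 121. In 82.3% of these genes the scaffold libraries were more spread than the plate libraries. The genes were taken as lower on the scaffold, where smaller counts carry more counting error on the log2 scale. The part of counting error was not tested, and the share among the higher genes was not computed. The cut used the mean over both groups, so a gene could pass through its plate values. Has1 did so, with means of 68.5 on plates and 32.4 on the scaffold.

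By the size of the difference on the log2(value + 1) scale, the 4 genes covered nearly the whole range of the 392 lower genes. Itih2 ranked 1, Ptx3 10, Cemip 73 and Has1 359. The median of the 4 was -2.36, beside -1.38 for the lower genes and -1.16 for all 581. Since the 4 were chosen with these values known, nothing is read from the difference between the medians.

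Levels of different genes were compared per kilobase of exon, using the gene lengths of the table. On plates, Ptx3 and Cemip stood level, at 145 ± 5.15 and 141 ± 7.60 normalised read counts per kilobase (SD, n = 3), a difference within their spread. Has1 followed at 15.2 ± 3.76 and Itih2 at 7.45 ± 2.18 per kilobase, and the ranges of these 2 genes, 11.2 to 18.7 and 5.27 to 9.62, did not overlap. On the scaffold, Cemip had 39.3 ± 15.1, Ptx3 26.7 ± 23.1 and Has1 7.17 ± 1.42 per kilobase. The ranges of Cemip and Ptx3 overlapped there (27.8 to 56.4 and 8.12 to 52.5), and those of Ptx3 and Has1 met, since Has1 reached 8.42. Itih2 had 1.28 per kilobase in scaffold replicate 2 and was listed at 0 in the other two.

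The balance between the genes shifted within libraries. The ratio of Cemip to Ptx3 per kilobase was 0.88, 1.03 and 0.99 in plate replicates 1, 2 and 3. It was 1.07, 1.74 and 3.42 in scaffold replicates 1, 2 and 3. All scaffold ratios were above all plate ratios, though that of scaffold replicate 1 was close to the plates. The ratio of Ptx3 to Has1 per kilobase was 13.5, 7.70 and 9.06 in the plate libraries and 6.24, 3.44 and 1.09 in the scaffold libraries, so in scaffold replicate 3 the crosslinker and the synthase had similar levels per length. The ratio of Cemip to Has1 per kilobase was 11.9, 7.94 and 9.01 in the plate libraries and 6.70, 5.97 and 3.73 in the scaffold libraries, again without overlap. The nearest of these, 7.94 and 6.70, rest on 82 Has1 reads in plate replicate 2 and 37 in scaffold replicate 1. Counting error in the ratios was not tested. A ratio within a library does not depend on the size factor, and it shows unequal change only. The genes were chosen with their values known and ratios of other gene pairs were not computed, so the lack of overlap is a description.

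The rest of the hyaluronan pathway was not in the table. Of 54 symbols listed for the pathway, these 4 were present. They were 1 of 3 synthases, 1 of 12 breakdown genes and 2 of 9 genes for heavy chain transfer and crosslinking. None of 9 genes that supply sugar nucleotides, 8 receptor and uptake genes, or 13 link protein, proteoglycan and other binder genes was present. Has2, the main fibroblast synthase, the receptor gene Cd44 and Tnfaip6 are thus not analysed here, and their levels in these cells are unknown.

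Of 26 regulators listed as signals known to change hyaluronan synthase expression, 5 were in the table. The list was written with earlier results known, and the rest of it was not analysed here. All 5 were higher on the scaffold without overlap, as 32.2% of the 581 genes were. Their median log2 difference was 1.61, and 2.37 and 1.34 with equal medians and quantile normalisation. Ptgs2, the inducible cyclooxygenase, had 4317 to 4362 normalised read counts on plates and 14893 to 16236 on the scaffold. Ptges, the prostaglandin E synthase that acts after it, had 3481 to 3645 and 9076 to 10131. Prostaglandin E2, their product, is known to raise hyaluronan synthesis in fibroblasts. Has1 was the only synthase in the table, and a link between the regulators and the hyaluronan genes was not tested.

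The growth factors in that list behaved alike. Hbegf, a ligand of the EGF receptor, had 222 to 248 on plates and 767 to 799 normalised read counts on the scaffold. Ereg, another such ligand, had 608 to 670.3 and 1809 to 2066. Fgf2, a fibroblast growth factor, had 222 to 260.3 and 504 to 576. In these 5 genes the 3 scaffold libraries lay closer together, relative to their level, than in the 4 hyaluronan genes. The regulators had scaffold values from 504 upwards, beside 25.4 to 38.0 in Has1 and 0 to 4.24 in Itih2. The part of counting error in this contrast was not tested. Members of both lists come from the same contrast, so the opposite directions are a description.

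**Figure D3:**
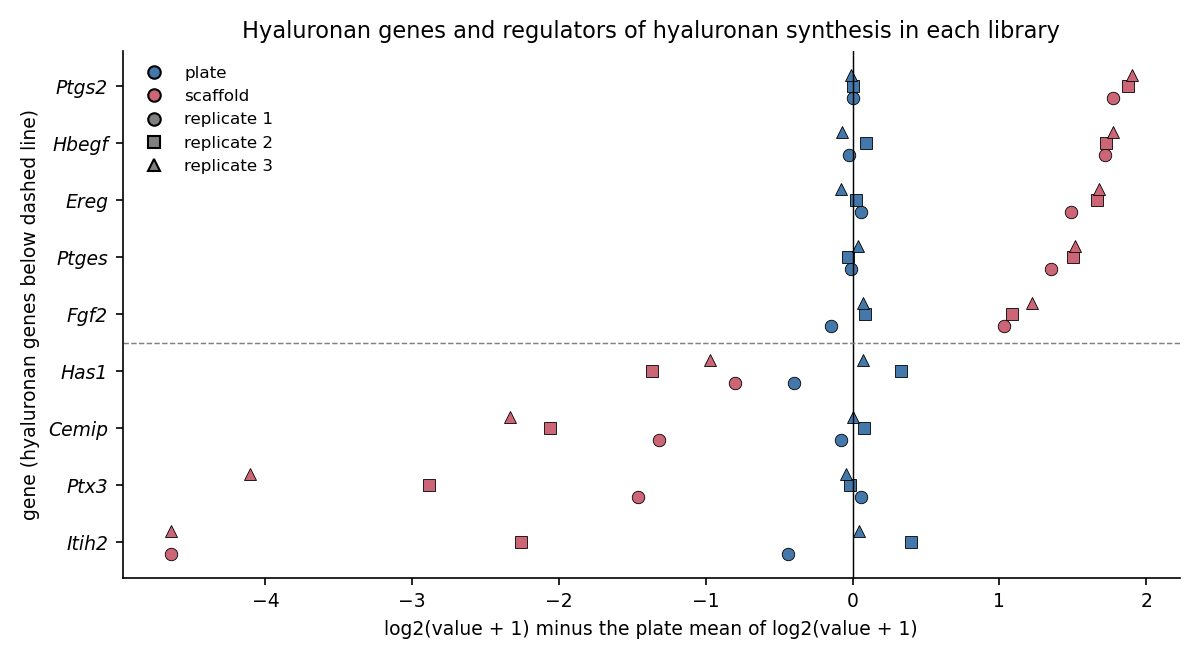
Difference of log2(value + 1) from the plate mean in each library (x axis) for the 4 hyaluronan genes, below the dashed line, and the 5 regulators in the table, above it. Blue marks are plate and red marks scaffold libraries, with shape giving the replicate. The hyaluronan genes lie to the left of 0 on the scaffold, with Ptx3 and Itih2 widely spread, and the regulators lie to the right in tight groups.

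Genes with the most similar pattern differed for each of the 4. Likeness was the root mean square difference of log2(value + 1), centred on each gene's mean, over the 6 libraries, among 426 named genes with a mean of at least 5. It includes the differences between groups and between libraries, so a library order shared with a neighbour is favoured by the choice. The likeness is a description. Nearest to Has1 were Trp53cor1, a long non-coding RNA induced by p53 (0.14), the transcription factor gene Mycn (0.16) and the bradykinin receptor gene Bdkrb2 (0.17). Bdkrb2 had 49.7, 85.4 and 67.6 normalised read counts on plates, low in replicate 1 as Has1 was, and 32.9, 29.7 and 26.7 on the scaffold.

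Cemip had the closest neighbours. They were C1qtnf1, a secreted C1q and TNF related protein (0.11), Txnip, the thioredoxin-interacting protein (0.12), and the aldehyde dehydrogenase gene Aldh1a7 (0.12). Aldh1a7 is a close paralog of Aldh1a1, so its reads are uncertain. Txnip had 1155, 1215 and 1236 normalised read counts in the plate libraries and 544, 348 and 278 in the scaffold libraries, the same order of scaffold libraries as in Cemip.

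Ptx3 lay nearest to Kng2, a kininogen gene (0.32), Ly6a, the surface antigen Sca-1 (0.35), and Clu, the secreted chaperone clusterin (0.38). Ly6a had 1361, 1420 and 1379 normalised read counts in the plate libraries and 654, 329 and 134 in the scaffold libraries, with the scaffold libraries in the same order as in Ptx3. Kng2 and Ly6a have close paralogs, and their reads are uncertain. Itih2 had no close neighbour. Esr1, the estrogen receptor alpha gene, the cytolinker gene Eppk1 and the amino acid transporter gene Slc7a15 were nearest, at 0.83, 0.87 and 0.94. With 0, 4.24 and 0 on the scaffold, Itih2 lay near the floor there, so its distances to all genes include much counting error. Esr1, Eppk1 and Slc7a15 had scaffold means of 2.44, 3.07 and 1.04, and like Itih2 passed the cut on the mean through their plate values. Among the 4 genes themselves, Has1 and Cemip were the nearest pair at 0.53, followed by Cemip and Ptx3 at 0.66, and Itih2 was 1.27 to 1.70 from the other 3.

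**Figure D4:**
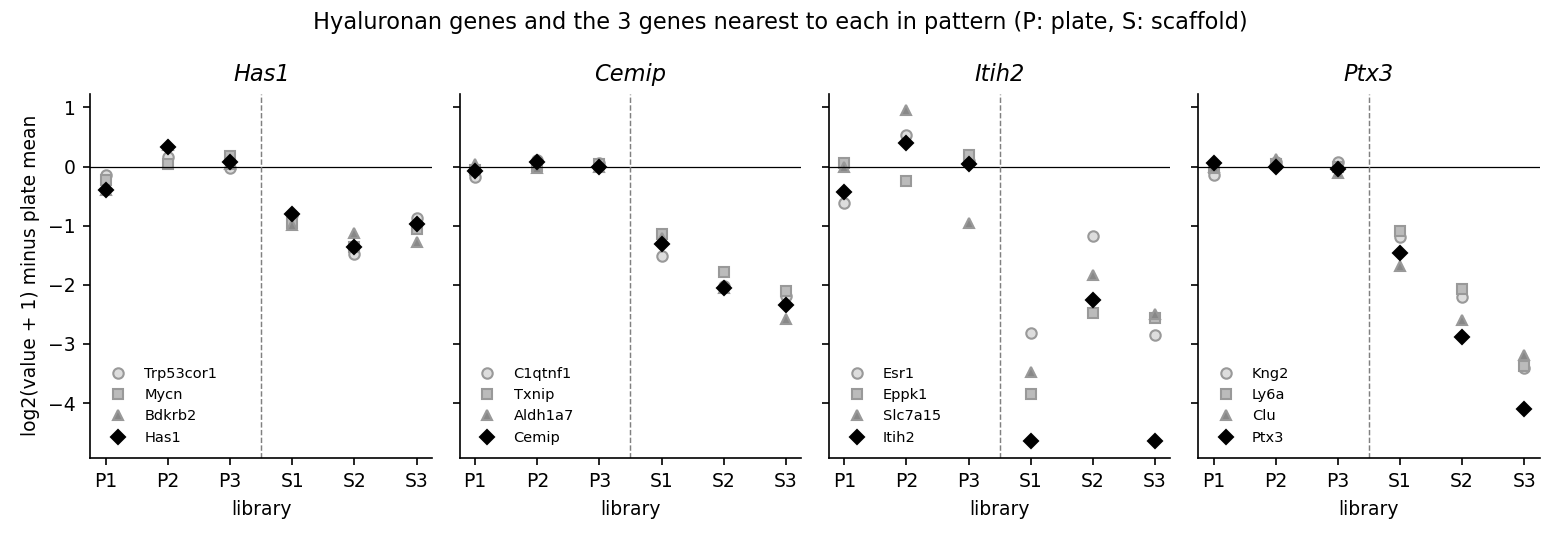
Difference of log2(value + 1) from the plate mean (y axis) in the 3 plate (P) and 3 scaffold (S) libraries for each hyaluronan gene (black diamonds) and the 3 genes nearest to it (grey). The neighbours of Cemip lie almost on it, and those of Itih2 lie well above it in scaffold replicates 1 and 3.

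The direction of all 4 genes held under every setting tried, while the size of the log2 difference varied. Most settings could not have reversed it. As deposited, the groups of each gene did not overlap, so leaving out a library or changing the pseudocount, filter, trend or block keeps the direction. A rescaling can reverse a direction, but equal medians moved the median of all genes by 0.74, less than the difference of any of the 4. The kept direction is therefore no support. Under both rescalings the groups of Has1 overlapped. Over these settings Has1 ran from -1.25 to -0.30, Cemip from -2.35 to -1.14, Ptx3 from -3.49 to -2.01 and Itih2 from -8.32 to -3.00.

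**Figure D5:**
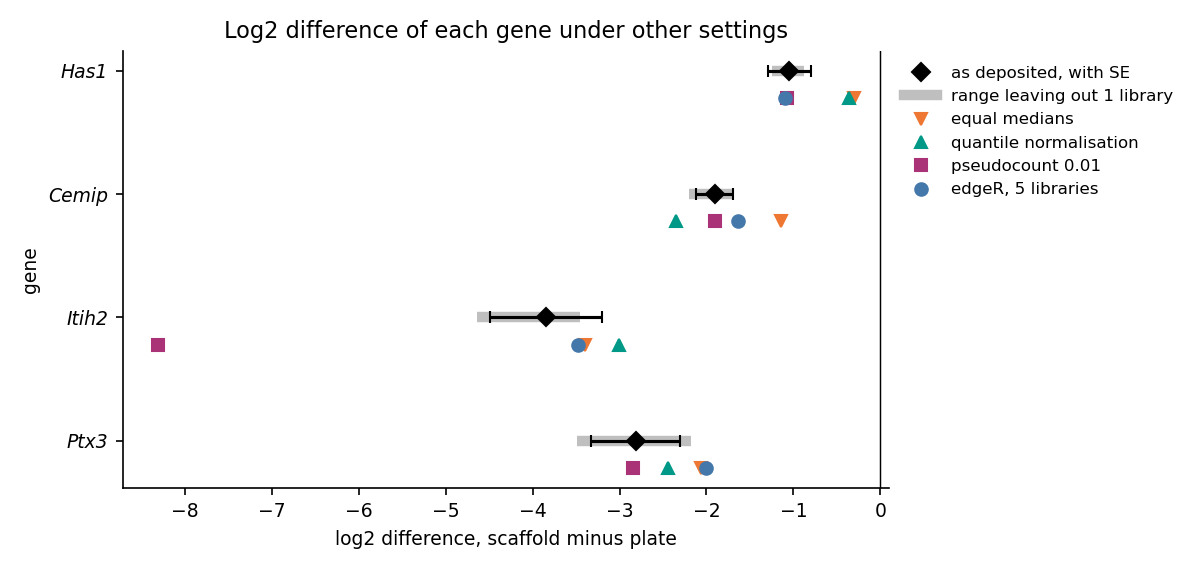
Log2 difference, scaffold minus plate, of each gene as deposited (black, with SE), over the fits that leave out 1 library (grey bar) and under other settings (coloured marks). Has1 is at -0.30 and -0.35 under the rescalings, Itih2 reaches -8.32 with a pseudocount of 0.01, and no value is above 0.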

How the data were processed

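The submitters' processing notes name fastp, HISAT2, HTSeq, DESeq2 and the build GRCm39, without versions or roles. The deposited tables are named FPKM. Yet 100% of values per library came out as whole multiples of 1 step, within 0.01 read and for genes of every length, so the deposited values were treated as a signal made of read counts scaled by a size factor. Per the labels, libraries were made with a NEBNext Ultra kit; use of strand in counting is not stated. Whole reads were accepted for 5 libraries, and not for scaffold replicate 3, whose step is close to 1. Coordinates are GRCm38, since the spans equal those of GENCODE M21.

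The 2 tables were joined on the gene identifier. Differences and SE came from limma 3.58.1 (R 4.3.3) on log2(value + 1) over all genes with a mean of at least 0.5, with an intensity trend and no block; the fit was tested on simulated data. It called 579 of 581 genes at an adjusted p of 0.05, and edgeR 4.0.16 on the recovered reads of 5 libraries called 580; the genes had been selected on these libraries, so no p-value is given for any gene. The 4 genes, the lists and the motifs were chosen with earlier results of these data known. Named genes were the 4, list members in the table, and for each of the 4 the 3 nearest in pattern, leaving out provisional symbols. Intervals and floors cover counting error only.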

Additional observations from a re-analysis of the deposited data

How the results depend on the processing

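No alternative changed the direction of Has1, Cemip, Itih2 or Ptx3, but most could not have, since the groups of each did not overlap as deposited. Libraries rescaled to equal medians gave log2 differences of -0.30 for Has1 and -1.14 for Cemip, and medians of -1.60 for the hyaluronan list and 2.37 for the regulators. Quantile normalisation gave -0.35, -2.35 and, for the regulators, 1.34. Pseudocounts of 0.1 and 0.01 gave -6.10 and -8.32 for Itih2, which 2 scaffold libraries at 0 make depend on the pseudocount by construction. All 15 alternatives for Ptx3 stayed within 1 SD of its replicates, from -3.49 without scaffold replicate 1 to -2.01 in edgeR on 5 libraries. That SD was wide, at 0.93 on the log2 scale beside 0.33 for Has1 and 0.38 for Cemip, so the result does not show that Ptx3 was steadier. Leaving out each library gave -1.25 to -0.88 for Has1, -2.20 to -1.69 for Cemip, -4.64 to -3.45 for Itih2 and -3.49 to -2.17 for Ptx3. A replicate block could not change the 4 differences (-1.05, -1.90, -3.85 and -2.82), since each number occurs once in each group. It gave SE of 0.283, 0.184, 0.492 and 0.369, and moved the calls over all genes from 579 to 580. The labels do not state whether the numbers pair the libraries, and these selected genes cannot settle it. The deviations of same-numbered libraries from their group means correlated at -0.03, 0.07 and 0.06. Of the libraries, 2 of 3 from plates and 2 of 3 from the scaffold correlated best with their own number. The count of genes whose groups do not overlap was 573, and 448 to 577 under the alternatives. Depth limits Itih2, with 4 reads in scaffold replicates 1 and 2 together.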
